A study of Homo sapiens with 6 samples.

Results

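The insulin-like growth factor (IGF) axis was represented by 10 genes of the 26475 in the deposited table: the growth factor gene IGF2 and its imprinted neighbour H19, the binding protein genes IGFBP1, IGFBP2, IGFBP3, IGFBP4 and IGFBP6, and the receptor genes IGF1R, IGF2R and INSR. They were found by their symbols, and all 10 passed the filter on low counts that left 12902 tested genes. The genes were proposed with the difference between the groups already known. Their differences are therefore given as a description with standard errors, and calls among them are counted beside the share of all genes but support nothing.

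Libraries came from HepG2, an established hepatocellular tumour line of human origin with much of the gene expression of hepatocytes, in 2 groups of 3. Cells of one group expressed TAF2, which is part of TFIID, the complex that recognises core promoters for RNA polymerase II, and cells of the other expressed enhanced green fluorescent protein (eGFP), a reporter. Both were growing exponentially when RNA was taken. The labels name no vector, promoter, clone, agent or time, and nothing in them ties the 3 libraries of a group to separate cultures. The spread and the p-values therefore cover only these libraries and may be technical.

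IGF2 is a secreted growth factor, abundant in fetal liver and in many liver tumours. In the extracellular space most of it is held by IGF-binding proteins, which carry the factors and keep them from the receptors. The type 1 receptor (IGF1R) and the insulin receptor (INSR) are tyrosine kinases that pass the signal on, whereas IGF2R, also the cation-independent mannose 6-phosphate receptor, takes IGF2 to lysosomes and clears it. IGF2 and H19 are imprinted in most tissues: they are normally read from opposite parental copies, under a shared control region.

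Library totals ran from 22276308 to 28024004 expected counts. TAF2 itself was at 37.9 ± 2.31 counts per 1000000 (CPM) in eGFP and 48.6 ± 1.37 CPM in TAF2 libraries (SD, n = 3 each; edgeR log2 fold change 0.36 ± 0.046 SE, adjusted p = 1.44e-08). All 10 hepatocyte markers examined were present, and 9 of them were called lower and 1 higher, with a summed level of 46504 to 47750 CPM in eGFP and 36285 to 38059 CPM in TAF2 libraries. The 6 fibroblast and stellate cell markers summed to 8.12 to 9.20 CPM in eGFP and 20.4 to 21.8 CPM in TAF2 libraries, nearly all of it PDGFRB, while DCN and LUM were at 0 and COL1A2 and COL3A1 had at most 1 count in a library. The 5 endothelial markers summed to at most 1.08 CPM, with KDR and STAB2 at 0. Of the 5 leukocyte markers, PTPRC and CD3E were at 0 and lysozyme, LYZ, gave most of the sum of 1936 to 2055 and 2274 to 2328 CPM. Of the 5 markers of other epithelia, SFTPC, KRT5 and TP63 were at 0, and the sum was 4.18 to 5.75 CPM over the 6 libraries. The part of the marker levels in the results below was not tested.

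All 5 binding protein genes were higher with TAF2, IGF2 and H19 were lower, and the 3 receptor genes differed by less than 10% either way. IGFBP1 was 2.01 times as high and IGFBP3 2.37 times, while the mean of IGF2 was 37.0% lower and that of H19 50.7% lower. For each of the 10 genes the 3 TAF2 values lay on one side of the 3 eGFP values, 6 higher and 4 lower. The share of tested genes without overlap was 50.6% (24.5% higher and 26.1% lower). The 10 genes were also past the adjusted threshold of 0.05 in edgeR's quasi-likelihood fit over all genes, where 43.0% of tested genes were. In the test against a 1.5-fold change 3 of the 10 passed, against 2.89% of tested genes. Nothing is read from these counts, since the genes were chosen with these values known. Their median absolute log2 fold change was 0.47, against 0.13 over all tested genes. In bulk RNA, fewer cells that express a gene and less of its RNA per cell cannot be told apart.

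**Figure D1:**
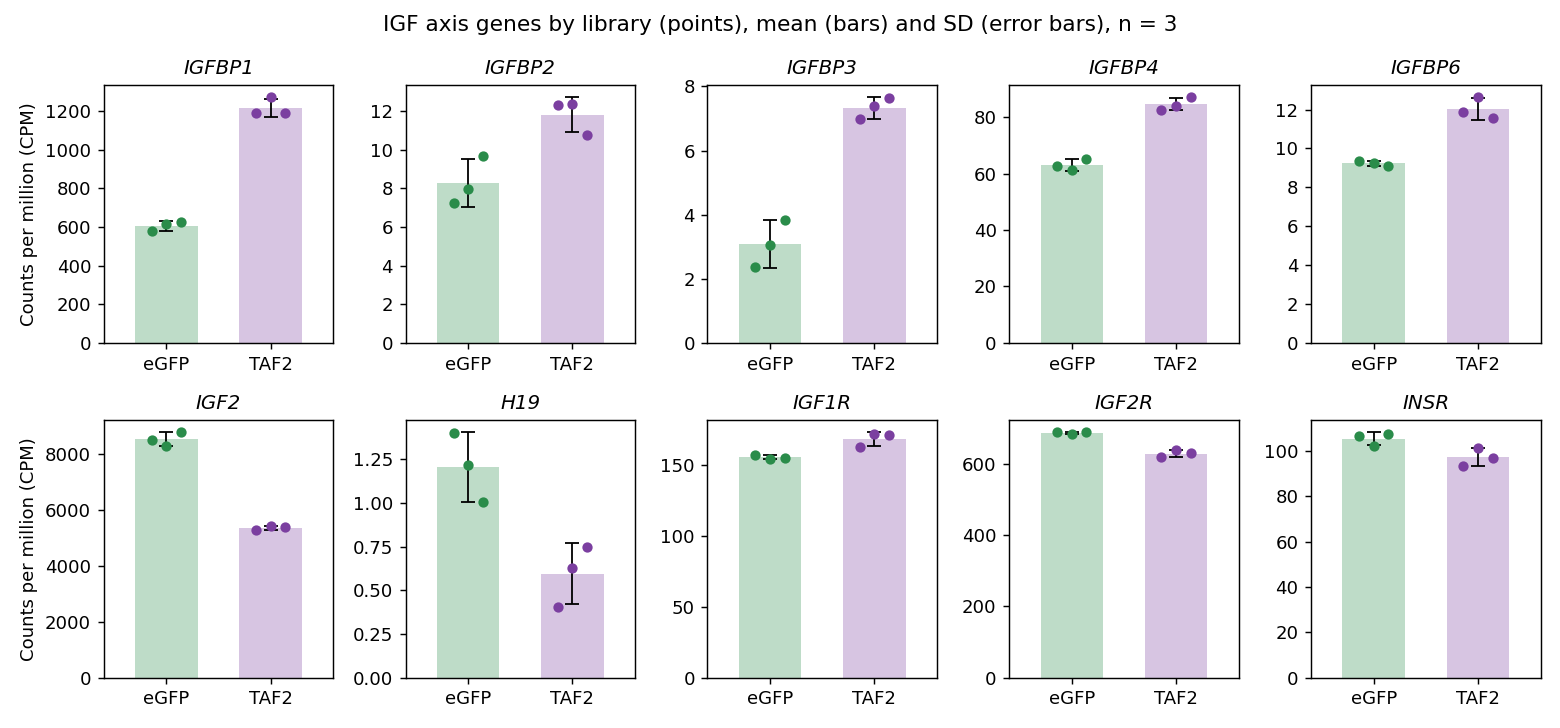
Normalised level of each IGF axis gene in CPM (vertical axes, each starting at 0) in eGFP and TAF2 libraries; points are libraries, bars are means and error bars are SD, n = 3. The IGFBP1 bars stand at 605 and 1218 CPM and those of IGF2 at 8527 and 5371 CPM, while the bars of the 3 receptor genes are close in height.

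IGF2 (chromosome 11, 2129117 to 2149566, GRCh38.p14) was among the most abundant transcripts of these cells. Its expected counts were 230487, 184253.33 and 219272.3 in the eGFP libraries and 130641, 138530.37 and 150766.35 in the TAF2 libraries. By count it ranked between 4 and 5 of all genes in every eGFP library and 7 in every TAF2 library. Scaled for depth, eGFP replicates 1 to 3 were at 8500.4, 8289 and 8792 CPM, and TAF2 replicates 1 to 3 at 5296, 5437 and 5381 CPM. The lowest eGFP library thus stood 2853 CPM above the highest TAF2 library. Means were 8527 ± 252 and 5371 ± 71.0 CPM (SD, n = 3 each), and the log2 fold change was -0.67 (SE 0.019). IGF2 transcripts made up 0.851% ± 0.0248 of all counts under eGFP and 0.538% ± 0.00729 under TAF2 (SD, n = 3 each).

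Reads of IGF2 could be shared with INS-IGF2, a read-through transcript annotated across the insulin gene and IGF2. INS-IGF2 was listed at 0, 5.67 and 5.7 expected counts in eGFP and at 0, 5.63 and 5.65 in TAF2 libraries. Added to IGF2, these values gave whole numbers in every library, for example 184259 in eGFP replicate 2. The deposited counts thus place no more than 6 counts in a library on INS-IGF2. How many reads were compatible with both is not known from these values. The other 9 genes had whole expected counts in all 6 libraries, which does not show whether reads were shared.

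H19 (chromosome 11, 1995176 to 2001266, GRCh38.p14), a long noncoding RNA that is abundant in fetal liver, was near the lower end of what these libraries measure. It had 38, 27 and 25 counts in the eGFP libraries and 10, 16 and 21 in the TAF2 libraries. In CPM these were 1.40, 1.21 and 1.00 against 0.405, 0.628 and 0.750. The groups did not overlap, but the gap between them was 0.253 CPM. The log2 fold change was -1.01 with a wide SE of 0.292, and without single libraries it ran from -1.21 to -0.80. MIR675, the microRNA gene inside H19, and MIR483, inside IGF2, were listed at 0 in all libraries. Reads over them may be counted to the longer genes, so a 0 does not show that the microRNAs were absent.

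IGFBP1 is a liver-secreted binding protein that insulin represses and that fasting and cell stress induce. It stood at 578, 614 and 623 CPM in the eGFP libraries, replicates 1 to 3, and at 1190.3, 1272 and 1191 CPM in the TAF2 libraries. A gap of 567 CPM separated the groups, against SDs of 23.9 and 47.0 CPM. The means were 605 and 1218 CPM, and the log2 fold change was 1.01 (SE 0.033). By count IGFBP1 ranked between 179 and 201 of all genes in eGFP libraries and between 59 and 67 in TAF2 libraries.

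IGFBP3, the main carrier of IGFs in blood and in liver largely a product of non-parenchymal cells, was expressed at a low level. It had 64, 68 and 96 counts in eGFP and 172, 188 and 214 counts in TAF2 libraries. These were 2.36, 3.06 and 3.85 CPM against 6.97, 7.38 and 7.64 CPM. The eGFP libraries spread by 24.1% of their mean, the TAF2 libraries by 4.58%, and the groups stayed 3.12 CPM apart. The log2 fold change of 1.25 (SE 0.134) was the largest of the 10 genes, and without single libraries it ran from 1.08 to 1.45.

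IGFBP2, a binding protein of fetal liver and of many tumours, was at 7.23, 7.96 and 9.66 CPM in eGFP and 12.3, 12.4 and 10.7 CPM in TAF2 libraries. The gap between eGFP replicate 3 and TAF2 replicate 3 was 1.08 CPM. With a log2 fold change of 0.51 (SE 0.097), its value ranged from 0.42 to 0.64 when single libraries were left out. IGFBP4, an inhibitory carrier cleaved by the protease PAPP-A, was more abundant and tighter. It was at 62.5, 61.2 and 65.3 CPM against 82.7, 84.1 and 87.1 CPM, a log2 fold change of 0.43 (SE 0.036). IGFBP6, which binds IGF2 in preference to IGF1, was at 9.33, 9.27 and 9.10 CPM in eGFP and 11.9, 12.6 and 11.6 CPM in TAF2 libraries (log2 fold change 0.38, SE 0.085). Thus the 5 genes shared a direction over a range of levels from 3.09 to 605 CPM in eGFP libraries.

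To show where transcription of the binding protein genes begins, the 250 bases before the annotated start are printed for the 3 genes with a single promoter entry in the RefSeq table (GRCh38.p14); 8 of the 10 genes had an entry there. They are written 5′ to 3′ along the gene's own strand, and capitals mark matches to any of 4 motifs searched on both strands: TATAAA (the TATA box), GTAAACA (a FOXO and forkhead site), GGGCGG (the GC box) and CAAAACAA (part of the insulin response element). Where the match is on the other strand its reverse complement is in capitals. IGFBP3 lies on the minus strand at chr7:45921273-45921522, IGFBP4 on the plus strand at chr17:40443200-40443449 and IGFBP6 on the plus strand at chr12:53097417-53097666.
IGFBP3: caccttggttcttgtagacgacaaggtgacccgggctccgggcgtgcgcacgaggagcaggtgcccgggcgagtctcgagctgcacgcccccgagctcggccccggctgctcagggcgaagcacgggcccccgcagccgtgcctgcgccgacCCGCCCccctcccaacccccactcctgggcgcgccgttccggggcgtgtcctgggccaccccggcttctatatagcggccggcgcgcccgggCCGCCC
IGFBP4: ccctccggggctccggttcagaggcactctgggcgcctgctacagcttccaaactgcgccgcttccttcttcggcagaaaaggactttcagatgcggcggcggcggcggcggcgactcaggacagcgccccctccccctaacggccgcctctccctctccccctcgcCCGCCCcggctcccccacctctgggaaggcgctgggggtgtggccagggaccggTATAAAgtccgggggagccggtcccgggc
IGFBP6: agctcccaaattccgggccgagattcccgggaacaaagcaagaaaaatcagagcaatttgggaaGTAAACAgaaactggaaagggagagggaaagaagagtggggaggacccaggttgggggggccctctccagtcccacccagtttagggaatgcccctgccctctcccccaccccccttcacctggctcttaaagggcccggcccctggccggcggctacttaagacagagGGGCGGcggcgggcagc

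IGFBP4 held TATAAA from 29 to 24 bases before the start, the usual place of a TATA box, and this motif occurs in 10.7% of all 35116 promoter windows of the same length. Only exact matches were marked, and the similar tatata in the IGFBP3 window was not among the motifs. In IGFBP6, GTAAACA lay from 186 to 180 bases before the start, and 2.98% of windows hold it. All 3 windows held the GC box, which 42.6% of windows hold; IGFBP3 had it on the other strand from 98 to 93 and again from 6 to 1 bases before the start. CAAAACAA, found in 1.46% of windows, matched in none of the 3. IGFBP1 and IGF2 had no entry, so none of the motifs was sought before them. None of the motifs was common to the 3 apart from the GC box, which also occurred before IGF1R, IGF2R and INSR and at 2 of the 3 annotated starts of IGFBP2. The H19 window held none of the 4. A match describes these letters and says nothing of binding.

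Levels of different genes were compared per kilobase, using the longest GENCODE 29 transcript that matches the RefSeq accessions of the gene. On that scale IGF2 led in eGFP libraries at 1527 ± 45.2 CPM per kb (SD, n = 3), followed by IGFBP1 at 366 ± 14.5. IGF2R (48.9 ± 0.167), IGFBP4 (28.6 ± 0.938), IGF1R (12.7 ± 0.129) and INSR (11.8 ± 0.322) formed the middle. IGFBP6 (7.90 ± 0.101), IGFBP2 (5.76 ± 0.868), IGFBP3 (1.37 ± 0.329) and H19 (0.514 ± 0.0850) were lowest. The order of means was the same in TAF2 libraries, with IGF2 at 962 ± 12.7 and IGFBP1 at 737 ± 28.4 CPM per kb. In eGFP libraries neighbours in this order were further apart than their spread. In TAF2 libraries INSR (10.9 ± 0.444) and IGFBP6 (10.3 ± 0.472) did not differ beyond their spread. The place of INSR beside IGF1R rests on the length chosen: with its shortest matched transcript INSR would be at 22.4 CPM per kb. For IGF2, whose matched transcripts run from 1023 to 5585 bases, the shortest would give 8335 CPM per kb.

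IGFBP1 made up 89.3% ± 0.311 of the summed binding protein transcripts per kilobase under eGFP and 92.4% ± 0.204 under TAF2 (SD, n = 3 each). The sum itself was 409.7 ± 15.9 CPM per kb in eGFP and 797 ± 29.02 in TAF2 libraries, so nearly all of its increase was IGFBP1. Fewer IGF2 transcripts were thus set against more binding protein transcripts. The ratio of IGF2 to IGFBP1 in CPM was 14.7, 13.5 and 14.1 in the eGFP libraries and 4.45, 4.27 and 4.52 in the TAF2 libraries. These are ratios of RNA, and neither protein was measured.

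**Figure D2:**
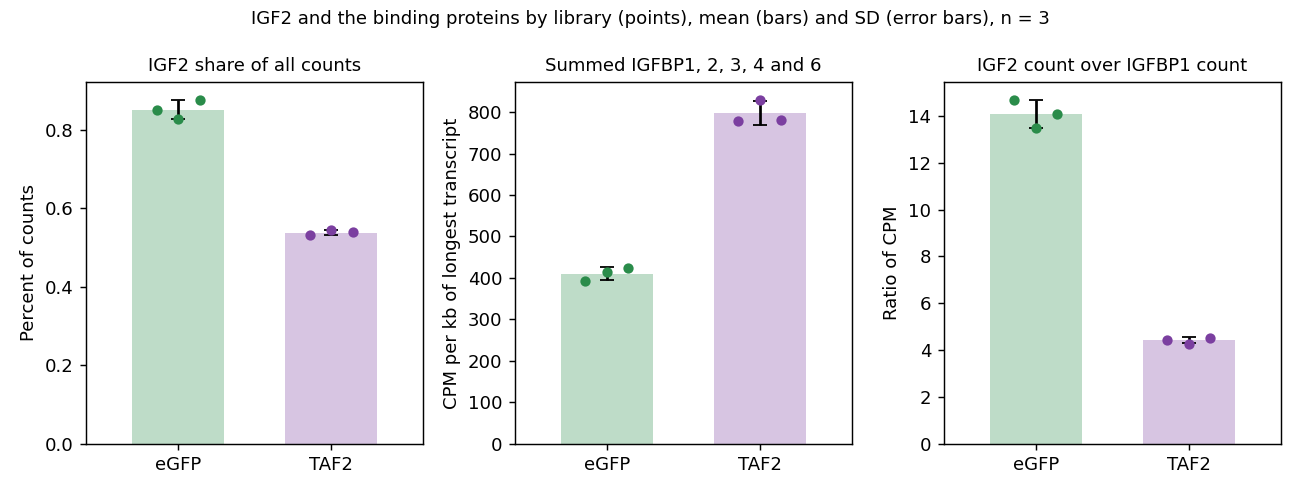
Share of all counts from IGF2 (left, percent), summed level of IGFBP1, IGFBP2, IGFBP3, IGFBP4 and IGFBP6 (middle, CPM per kb of the longest transcript) and the ratio of IGF2 to IGFBP1 in CPM (right); points are libraries, bars means, error bars SD, n = 3. The ratio, not corrected for transcript length, is between 13.5 and 14.7 in eGFP libraries and between 4.27 and 4.52 in TAF2 libraries.

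The receptors differed little. IGF1R was at 157, 154 and 155 CPM in eGFP and 163, 172 and 171 CPM in TAF2 libraries, a log2 fold change of 0.12 (SE 0.026). IGF2R, the clearance receptor, was at 688, 684 and 688 CPM against 619, 638 and 629 CPM (log2 fold change -0.13, SE 0.021). INSR was at 107, 102 and 108 CPM against 93.4, 101 and 96.9 CPM, a log2 fold change of -0.12 (SE 0.032). Its gap of 0.930 CPM between the groups was small beside its spread, and with upper-quartile scaling INSR overlapped. Between 46.9% and 50.4% of all tested genes had a smaller absolute log2 fold change than these 3 genes. The ratio of IGF1R to INSR in CPM was 1.47 ± 0.0349 in eGFP and 1.73 ± 0.0357 in TAF2 libraries, and that of IGF2R to INSR was 6.51 ± 0.159 and 6.47 ± 0.170 (SD, n = 3 each).

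**Figure D3:**
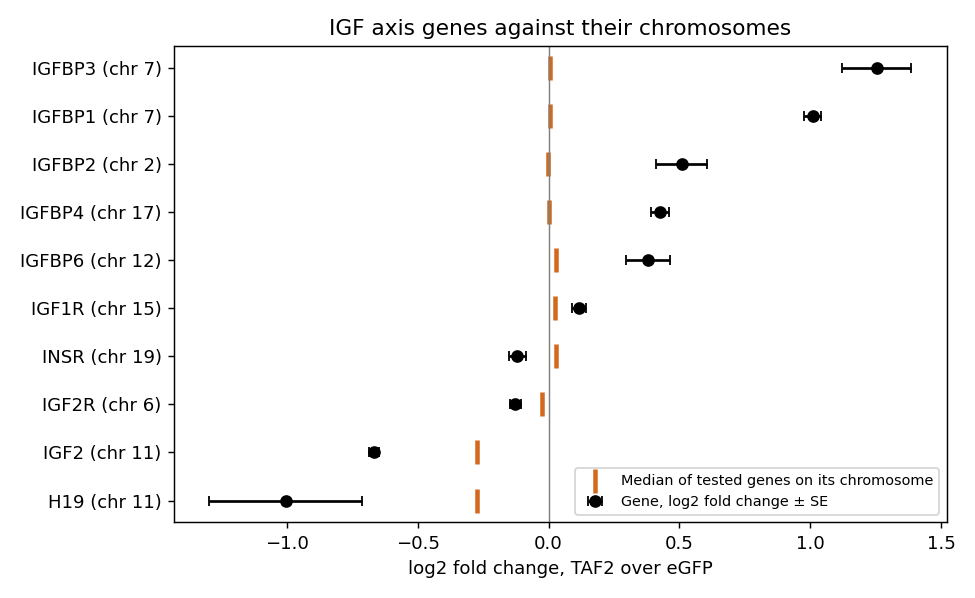
Log2 fold change of TAF2 over eGFP for each IGF axis gene (black points, bars are SE; horizontal axis) with the median of all tested genes on its chromosome (orange ticks). The binding protein genes lie from 0.38 to 1.25, away from chromosome medians near 0, and the chromosome 11 median of -0.28 lies on the same side as IGF2 and H19.

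The surroundings of the genes differed between the groups to different degrees; distances are between leftmost annotated bases, in GRCh38.p14. On chromosome 11 the median log2 fold change of 721 tested genes was -0.28, and 91.3% of them were lower with TAF2. Of the 11 tested neighbours within 500 kb of IGF2 or H19, 9 fell and 0 rose at an edgeR adjusted p of 0.05, with a median of -0.50. Over all tested genes 22.4% were called lower and 20.6% higher. IGF2 was lower than 90.8% of the chromosome's other tested genes and H19 lower than 96.0%. Relative to the chromosome median, IGF2 was at -0.39 and H19 at -0.73. The part of the chromosome-wide difference in the level of IGF2 was not tested. MRPL23-AS1, the tested gene nearest to H19 at 11.97 kb, fell from 5.95 ± 0.585 to 2.91 ± 0.191 CPM (n = 3 each, SD; log2 fold change -1.04, edgeR adjusted p = 1.39e-08). MRPL23, 47.8 kb from H19, fell by 0.34 on the log2 scale (edgeR adjusted p = 4.05e-09).

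IGF2-AS, transcribed against IGF2, was the neighbour with the highest value. It was at 2.84, 3.73 and 3.37 CPM in eGFP and 4.18, 3.49 and 4.39 CPM in TAF2 libraries. The log2 fold change was 0.29 ± 0.145 SE (edgeR adjusted p = 0.104). The groups overlapped. Over the alternatives its adjusted p ran from 0.0492, without TAF2 replicate 2, to 1. Whether counting used strand is not given in the sources used here, and without it reads of IGF2 and IGF2-AS cannot be told apart where they overlap.

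IGFBP1 and IGFBP3 lie 23.8 kb apart on chromosome 7 (45888488 to 45893660 and 45912245 to 45921272), on GRCh38.p14, where the median of 621 tested genes was 0.01. By point estimate, none of the other 55 tested genes within 10 Mb of them was as high as either gene. Within 500 kb there were 2 other tested genes. SEPT7P2, 165 kb from IGFBP1, had a log2 fold change of 0.03 (edgeR adjusted p = 0.867), and the adenylyl cyclase gene ADCY1, 314 kb from it and chosen after its value was seen, rose by 0.97 at 1.12 CPM in eGFP (edgeR adjusted p = 0.00045). ADCY1 was not called in the test against a 1.5-fold change (adjusted p = 0.337, the highest over its alternatives, which began at 4.37e-05). Its SE was 0.226, and without single libraries its log2 fold change ran from 0.72 to 1.15. Within that error it was level with IGFBP1.

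IGFBP2 (chromosome 2, 216632828 to 216664436) sits in a region where most genes were higher with TAF2. The 70 other tested genes within 10 Mb had a median of 0.18, and 81.4% of them were higher, whereas the median over the 843 tested genes of chromosome 2 was 0.00. Its nearest tested neighbour, the ribosomal protein gene RPL37A at 134 kb, rose by 0.31 (edgeR adjusted p = 1.48e-14), and SMARCAL1 at 220 kb had 0.07 (edgeR adjusted p = 0.232). Relative to its region IGFBP2 was at 0.33, and 6 of the 70 genes were higher than it.

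IGFBP4 (chromosome 17, 40443450 to 40457725) and IGFBP6 (chromosome 12, 53097667 to 53102340) lie in regions with medians within 10 Mb of 0.01 and 0.03. Of the 16 tested genes within 500 kb of IGFBP4, 11 were called higher and 1 lower, and of 20 around IGFBP6, 8 higher and 2 lower. The shares of all tested genes called were 20.6% higher and 22.4% lower. Beside IGFBP4, the adhesion protein gene TNS4, 32.4 kb away, rose by 0.65 (edgeR adjusted p = 7.29e-13), and TOP2A, 54.9 kb away, by 0.10 (edgeR adjusted p = 0.0154). Without eGFP replicate 2 TOP2A was not called (adjusted p = 0.0614, in a range from 1.84e-05 to 1). SOAT2, which esterifies cholesterol, lies 5.82 kb from IGFBP6 and fell (log2 fold change -0.53, edgeR adjusted p = 4.28e-13). SPRYD3, 33.4 kb away on the other side, rose by 0.16 (edgeR adjusted p = 0.0106).

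**Figure D4:**
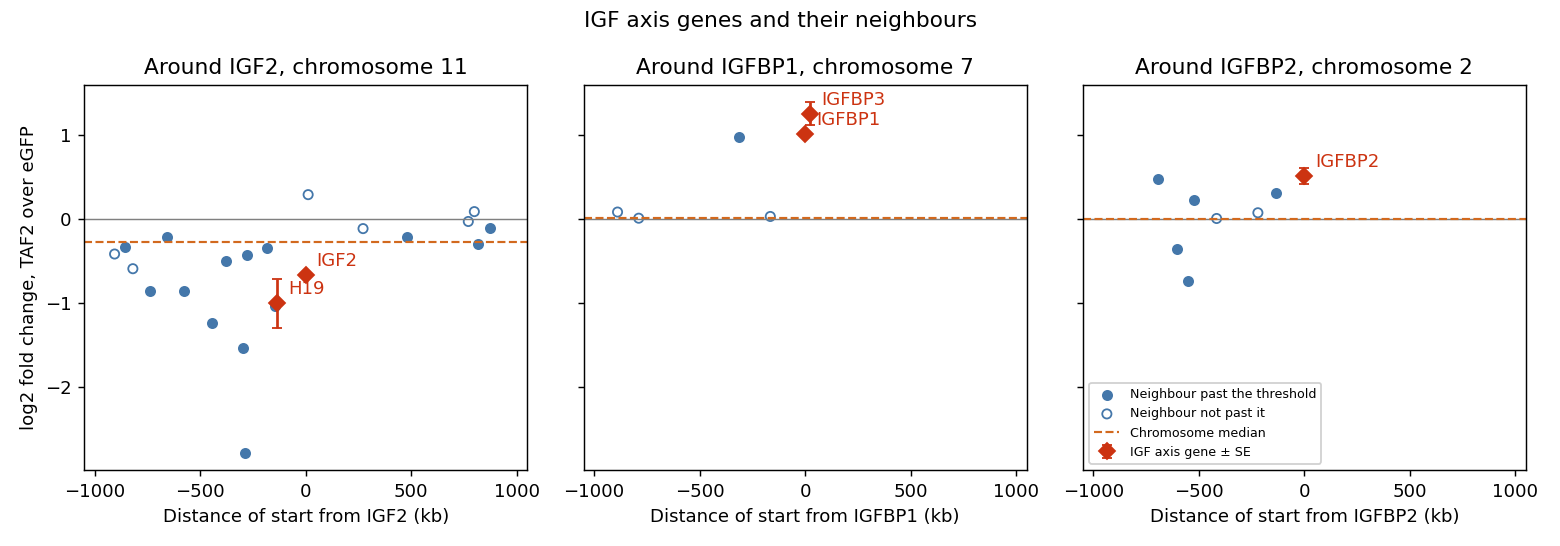
Log2 fold change (vertical axis) of tested genes by the distance in kb of their leftmost base from that of IGF2 (left), IGFBP1 (middle) and IGFBP2 (right), out to 1000 kb; filled circles passed the adjusted threshold, open circles did not, red diamonds are IGF axis genes with SE and dashed lines are chromosome medians. Around IGF2 the filled circles lie below 0, whereas IGFBP1 and IGFBP3 lie above the points of all their neighbours. The highest of these neighbours, ADCY1 (SE 0.226), is level with IGFBP1 within its error.

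Of the receptor genes, IGF2R (chromosome 6, 159969082 to 160111504) was in a region that was itself slightly lower, with a median of -0.10 over 54 genes within 10 Mb, and relative to it IGF2R was at -0.03. The leftmost base of its nearest tested gene, LOC729603, lay 124 kb from that of IGF2R and within the span of IGF2R. Whether these genes shared reads is not known. LOC729603 fell by 0.38 on the log2 scale (edgeR adjusted p = 0.0346). That call was lost without replicate 1 or 2 of the eGFP group (adjusted p = 0.0619 and 0.159) or of the TAF2 group (0.0817 and 0.0806), by DESeq2 (0.133) and with no filter (0.0509), in a range from 0.0335 to 1. IGF1R (chromosome 15, 98648539 to 98964530) and INSR (chromosome 19, 7112265 to 7294414) had regional medians of -0.02 and 0.02. Beside IGF1R, IRAIN, a noncoding RNA read from inside that gene against its strand, had 0.49 at 0.563 CPM in eGFP (edgeR adjusted p = 0.228), and SYNM had -0.01 (edgeR adjusted p = 0.912). IRAIN and IGF1R may likewise share reads if counting did not use strand. Beside INSR, ZNF557 had -0.13 (edgeR adjusted p = 0.467) and ARHGEF18 had 0.09 (edgeR adjusted p = 0.0648). ARHGEF18 was called without eGFP replicate 1 (adjusted p = 0.0403), with no filter (0.0496) and with upper-quartile scaling (0.0342), in a range up to 1.

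The other genes of the axis were taken from 7 lists chosen by function, but with earlier results of these data known. Calls among them are therefore a description. The lists held 103 genes, of which 80 were tested. In edgeR's quasi-likelihood test with Benjamini-Hochberg adjustment over all tested genes, 21 rose and 20 fell, and the median log2 fold change was -0.04, against 0.00 over all tested genes. A share of 43.0% of all tested genes was called. Against a 1.5-fold change, 1 of the 80 was called.

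Among other IGF family genes, IGF1, INS and INSRR, which encode the second growth factor, insulin and the insulin receptor-related receptor, were at 0 in all 6 libraries, which allows up to 0.107 to 0.135 CPM (3 counts in a library, for counting error only). IGFBP5, IGFBP7 and IGFBPL1 had at most 12 counts in a library and were not tested. IGFALS, the acid-labile subunit that stabilises IGF complexes in blood, had 0.527 ± 0.215 CPM under eGFP and 0.452 ± 0.107 CPM under TAF2 (SD, n = 3 each; edgeR adjusted p = 0.676). Of the 9 genes 2 were tested and 0 called, also 0 at an unadjusted p under 0.05.

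Of the genes for processing and proteolysis, 1 of 10 tested genes rose and 2 fell. CTSD, the lysosomal protease cathepsin D, lies on chromosome 11 at 376 kb from IGF2 and fell from 708 ± 5.80 to 502 ± 3.45 CPM (n = 3 each, SD; log2 fold change -0.50, edgeR adjusted p = 4.07e-23). FURIN, the convertase that cleaves the IGF1R and INSR precursors, rose by 0.29 (edgeR adjusted p = 5.04e-10), and ADAM17 fell by 0.19 on the log2 scale (edgeR adjusted p = 0.00032). STC2, an inhibitor of PAPP-A, was at 252 ± 2.42 and 260 ± 10.6 CPM (SD, n = 3 each) and was not called. PAPPA and PAPPA2 themselves were under the filter, with no more than 7 counts in a library for any untested gene of the list.

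Receptor adaptors and regulators went both ways, with 6 higher and 6 lower of 21. SHC1, which links the receptors to RAS, rose from 189 ± 3.75 to 252 ± 4.25 CPM (n = 3 each, SD; log2 fold change 0.41, edgeR adjusted p = 9.62e-18). The docking protein IRS1 rose by 0.32 (edgeR adjusted p = 1.44e-08). GAB1, on chromosome 4, fell by 0.50 (log2 fold change -0.50, edgeR adjusted p = 6.42e-09), and GRB10, an imprinted adaptor that restrains IGF1R and INSR, fell by 0.40 (log2 fold change -0.40, edgeR adjusted p = 1.81e-07).

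Among regulators of IGF2 and H19, 5 of 11 rose and 2 fell. LIN28B, an oncofetal RNA-binding protein, fell from 228 ± 8.96 to 177 ± 4.84 CPM (n = 3 each, SD; log2 fold change -0.36, edgeR adjusted p = 1.82e-13). The IGF2 mRNA-binding protein gene IGF2BP2 fell by 0.12 on the log2 scale (edgeR adjusted p = 0.000242). IGF2BP1 (629 ± 6.86 and 614 ± 11.3 CPM) and IGF2BP3 (100.1 ± 1.11 and 97.4 ± 1.38 CPM; SD, n = 3 each) were not called. TRIM28, a corepressor that keeps imprinted marks, rose by 0.13 (edgeR adjusted p = 3.02e-06) and the chromatin protein gene HMGA1 by 0.11 (edgeR adjusted p = 1.01e-05).

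Transcription factors known to act on binding protein genes had 6 higher and 5 lower of 16. CEBPB rose by 0.32 (edgeR adjusted p = 1.39e-13). EPAS1, the hypoxia factor HIF-2 alpha, fell by 0.33 on the log2 scale (edgeR adjusted p = 4.99e-15), and PPARA fell by 0.47 (log2 fold change -0.47, edgeR adjusted p = 8.94e-15). Whether any of these differences bears on IGFBP1 or its relatives was not tested.

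Genes of the mannose 6-phosphate route, which IGF2R serves, had 3 higher and 1 lower of 12. The smaller mannose 6-phosphate receptor gene M6PR rose by 0.17 (edgeR adjusted p = 5.37e-06) and GNPTAB, which makes the mannose 6-phosphate tag, by 0.21 (edgeR adjusted p = 4.23e-05). The adaptor gene GGA2 fell by 0.09 on the log2 scale (edgeR adjusted p = 0.00243), and GGA1 rose by 0.14 (edgeR adjusted p = 0.00624). GGA1 was not called without eGFP replicate 1 (adjusted p = 0.0675, in a range from 0.00111 to 1).

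Of 8 tested genes listed from the imprinted 11p15 region that holds IGF2 and H19, 4 fell and 0 rose. Over all tested genes 22.4% were called lower and 20.6% higher. The median log2 fold change of the 8 was -0.17, against -0.28 over the 721 tested genes of chromosome 11. By median this list was no lower than the chromosome, whereas the 11 tested neighbours within 500 kb of IGF2 or H19 had -0.50. The list leaves out some of those neighbours. NAP1L4 fell from 192 ± 1.32 to 156 ± 3.31 CPM (n = 3 each, SD; log2 fold change -0.30, edgeR adjusted p = 4e-13), and MRPL23 is given above. KCNQ1OT1, the noncoding RNA of the neighbouring imprinted domain, fell by 0.22 on the log2 scale (edgeR adjusted p = 0.0393), but was not called without eGFP replicate 1 (0.119), TAF2 replicate 2 (0.103) or TAF2 replicate 3 (0.0696), in a range of adjusted p from 7.48e-11 to 1. LSP1 (log2 fold change -0.43, edgeR adjusted p = 0.0445) lost its call under 9 alternatives besides the 1.5-fold test, among them DESeq2 (adjusted p = 0.153), limma (0.0599) and the fits without eGFP replicate 3 (0.268) or without TAF2 replicate 1, 2 or 3 (0.0548, 0.125 and 0.083), in a range from 0.0348 to 1. The imprinted genes CDKN1C, KCNQ1 and ASCL2 were under the filter.

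**Figure D5:**
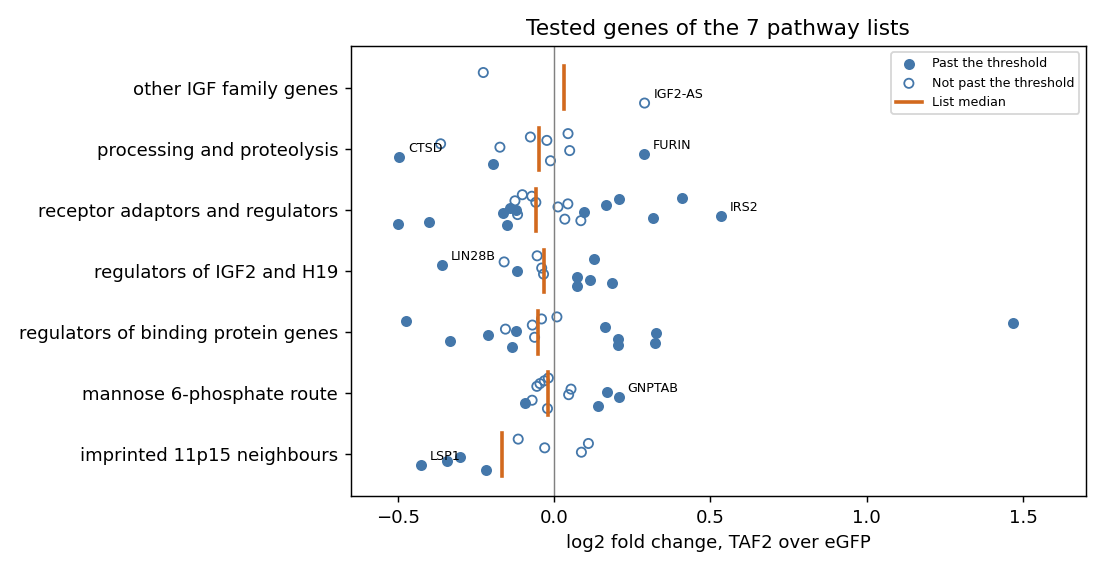
Log2 fold change (horizontal axis) of the 80 tested genes in the 7 lists (rows); filled circles passed the adjusted threshold of 0.05, open circles did not, and orange bars are list medians. The medians of the lists lie between -0.17 and 0.03.

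Genes with a profile like those of IGFBP3 and IGFBP1 were sought by the root mean square difference of centred log2 CPM over the 6 libraries, among 10349 genes of at least 5 CPM. These 2 had the largest log2 fold changes by size in the fit used, although H19 (-1.01, SE 0.292) was level with IGFBP1 within its error. Nearest to IGFBP1 were the kinase gene PIM1 (difference 0.046, from 63.4 ± 1.97 to 132 ± 3.46 CPM, SD, n = 3 each), SEMA6A (0.0524) and the intermediate filament gene NES (0.0584). Among those near IGFBP3 were MISP (0.128) and BTBD11 (0.135). None of these 5 genes is on chromosome 7, and the likeness, chosen for this pattern, is a description.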

How the data were processed

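RNA of HepG2 cells was sequenced in 6 libraries, 3 per group; per the labels' protocols, an Illumina TruSeq RNA kit was used. Expected counts per gene, not normalized and listed with RefSeq accessions, were deposited by the authors in 1 table; the submitters' processing notes name RSEM and the build hg38. Between 4.18% and 4.45% of values in a library were not whole. For the aligner, the annotation release and the use of strand, nothing is given in the sources used here. Columns were matched to samples by name, with 0 left unused.

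Expected counts were rounded, filtered with filterByExpr and scaled by TMM in edgeR 4.0.16 (R 4.3.3). Groups were compared by glmQLFit (robust) and glmQLFTest with the group alone, with Benjamini-Hochberg adjustment over 12902 genes at 0.05. The SE of a log2 fold change is its absolute value over the square root of the F statistic of that test. It is not an output of edgeR. CPM use the scaled library sizes. The common dispersion of 0.000758 (a coefficient of variation of 2.75%) is small for replicates and lets small differences be called. The code was tested on simulated data. Alternatives used limma 3.58.1, DESeq2 1.42.0, other scalings, filters and left-out libraries. Positions came from a RefSeq table of GRCh38.p14 matched by accession (98.8% of tested genes); transcript lengths came from GENCODE 29. A gene's distance is between leftmost annotated positions.

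The 10 members and the 7 lists were chosen with earlier results of these data known. Named genes were all members, up to 4 called genes per list by p (or 2 by CPM), the 2 tested genes nearest each member, and the 3 most similar profiles for the 2 members of largest fold change. Some genes that this rule selects are not reported here. STC2, IGF2BP1 and IGF2BP3 were named after their values were seen. Intervals and limits cover counting error only.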

Additional observations from a re-analysis of the deposited data

How the results depend on the processing

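The log2 fold changes of the 10 IGF axis genes kept their sign in every alternative run. Leaving out single libraries gave 0.98 to 1.03 for IGFBP1, -0.68 to -0.64 for IGF2 and -0.15 to -0.09 for INSR. Relative to genes within 10 Mb, a comparison added after the data had been seen, IGF2 was at -0.42, IGFBP2 at 0.33 and IGF2R at -0.03. H19 was under a filter of at least 1 CPM in 3 libraries, which left 9 genes, and with upper-quartile scaling 9 of 10 genes had no overlap. In the test against a 1.5-fold change 373 genes were called, 153 higher and 220 lower, in place of 5548 (2662 and 2886), and 1 of the listed genes, 1 higher and 0 lower, in place of 41 (21 and 20); 3 of the 10 IGF axis genes passed it. Without single libraries 4800 to 5288 genes were called (2282 to 2631 higher, 2518 to 2699 lower), and 33 to 43 listed genes (18 to 23 higher, 14 to 20 lower). Called neighbours went from 44 of 75 within 500 kb to 68 of 128 within 1000 kb, where 43.0% of all tested genes were called. With upper-quartile scaling 3001 genes were higher. Replicate numbers are shared by the groups, but the labels do not say that they pair the libraries. Deviations from group means correlated across 10349 genes at -0.12, -0.27 and -0.17 for same-numbered libraries. For different-numbered libraries they correlated at -0.03 to 0.17. Deviations within a group of 3 depend on each other, so these values cannot decide whether libraries were paired. With the replicate block 5250 genes and 37 listed genes were called, and IGFBP1 was at 1.01 and IGF2 at -0.67. For H19, with 10 to 38 counts a library, depth limits the precision.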
